A study of Mus with 51 samples.

Results

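The Nr4a family consists in the mouse of Nr4a1 (also called Nur77), Nr4a2 (Nurr1) and Nr4a3 (Nor1). All 3 genes were found by symbol among the 34923 genes of the deposited count table, and all 3 passed the filter on low counts that left 17211 genes for testing. In mm10, with coordinates from the RefSeq annotation of GRCm38.p6, Nr4a1 lies on chromosome 15 at 101253902 to 101274795, Nr4a2 on chromosome 2 at 57106830 to 57124003 and Nr4a3 on chromosome 4 at 48045078 to 48086447. All are annotated as protein-coding, and the values below sum reads over each whole gene.

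NR4A proteins are orphan nuclear receptors: they bind DNA as monomers or dimers, and their activity is set largely by how much protein is made rather than by a hormone. In T cells their genes belong to the immediate early response to the T cell receptor (TCR), and Nr4a1 reporters are widely used to read TCR signal strength. The family is known for roles in deletion of self-reactive thymocytes, in regulatory T cells and in T cell anergy and exhaustion. The genes are also induced in stimulated B cells and macrophages.

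The libraries hold poly-adenylated RNA of sorted lymph node cells from 5C.C7 mice, on the B10.A background. Every group shares the Rag2 deficiency and the transgenic TCR, which recognises a moth cytochrome c peptide (MCC) as its agonist. The groups are MCC+GP CD69-hi, MCC CD69-hi, MCC+GP CD69-lo, MCC CD69-lo, GP and NP, each at 1, 6 and 24 h. NP means no peptide, GP is the self-peptide condition, and CD69-hi and CD69-lo are sort fractions by CD69, an early activation receptor. MCC CD69-lo, GP and NP have 2 libraries at 6 h, and the other 15 groups have 3. The labels name neither the age of the mice, nor the cells that presented the peptides, nor whether libraries of a group came from separate animals, so the p-values here speak of the spread between libraries, which may be technical.

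Library totals ran from 29030 to 10278776 counts with a median of 5436653, and the shallowest were those of MCC+GP CD69-lo at 24 h, with 237390, 29030 and 301455. CPM values of Cd3e, Cd4 and all summed marker lists are counts scaled to the plain library total, without TMM. All other CPM values are counts scaled to TMM-normalized library size. Marker sums and Nr4a levels are thus not on the same scale, also in the shallow libraries. Cd3e, a TCR complex subunit, was at 54.8 CPM or more in every library, and Cd4 at 71.7 CPM or more. A list of 15 B cell markers, which a Rag2-deficient mouse would not supply from its own lymphocytes, summed to group means between 212 and 3752 CPM. A list of 21 myeloid and dendritic cell markers summed to 67.2 to 8496 CPM, with Itgam, which encodes CD11b, at 0 in most groups. Both lists moved with the groups. A list of 12 T cell markers summed to 1821 CPM in MCC+GP CD69-lo at 24 h, the lowest of the group means, and to 5656 CPM in GP at 1 h, the highest. In bulk RNA, fewer cells of a type and less RNA per cell cannot be told apart. Among unstimulated libraries, the first of NP 6 h and the first of NP 24 h, both of the same round of well codes, stood apart from the others of their group. Their Egr1, another TCR-induced immediate early gene, was at 433 CPM against 7.04 CPM in the other NP 6 h library, and at 121 CPM against 4.52 and 4.86 CPM in the other NP 24 h libraries.

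All 3 Nr4a genes were higher in MCC CD69-hi than in NP at every time, by 13.5-fold to 75.8-fold. The labels of NP and GP name no CD69 fraction. Peptide and sorting on CD69 therefore cannot be told apart in any fold of a sorted fraction over NP or GP. At 1 h, Nr4a1 stood at 7057, 10533 and 11133 CPM in the MCC CD69-hi libraries, against 397, 653 and 308 CPM in NP. Nr4a2 stood at 2343, 2999 and 3663 CPM in MCC CD69-hi, against 68.1, 99.6 and 87.2 CPM in NP. Nr4a3 stood at 8297, 8627 and 9534 CPM in MCC CD69-hi, against 614, 806 and 547 CPM in NP. For each gene the lowest stimulated library was far above the highest NP library. How many of all genes separate without overlap was not computed. Together the 3 genes took 2.12% of all counts in MCC CD69-hi at 1 h (range 1.78 to 2.35%), against 0.113% in NP at 1 h.

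The log2 fold changes at 1 h were 4.40 ± 0.53 for Nr4a1 (SE; edgeR adjusted p = 7.02e-08), 5.14 ± 0.40 for Nr4a2 (edgeR adjusted p = 2.42e-12) and 3.75 ± 0.31 for Nr4a3 (edgeR adjusted p = 3.51e-12). All 3 members were called higher in this comparison, where 12.4% of all genes tested were. Marker RNA of other cells differed in the same comparison: B cell markers summed to 3550 CPM in MCC CD69-hi and 566 CPM in NP at 1 h, and myeloid and dendritic markers to 402 and 85.9 CPM. With B cell RNA as a covariate, the 3 values were 5.48, 6.02 and 4.57. The B cell sums did not overlap (495.2 to 681.5 CPM in NP, 2684 to 4432 CPM in MCC CD69-hi). These 3 values thus extrapolate a slope that was fitted within groups. Titles end in a well code that places the libraries in 4 rounds, whose meaning the labels do not give. Within each of the 3 rounds that hold both groups at 1 h, the difference lay between 4.01 and 5.17 for Nr4a1, 4.91 and 5.38 for Nr4a2, and 3.42 and 4.12 for Nr4a3.

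**Figure D1:**
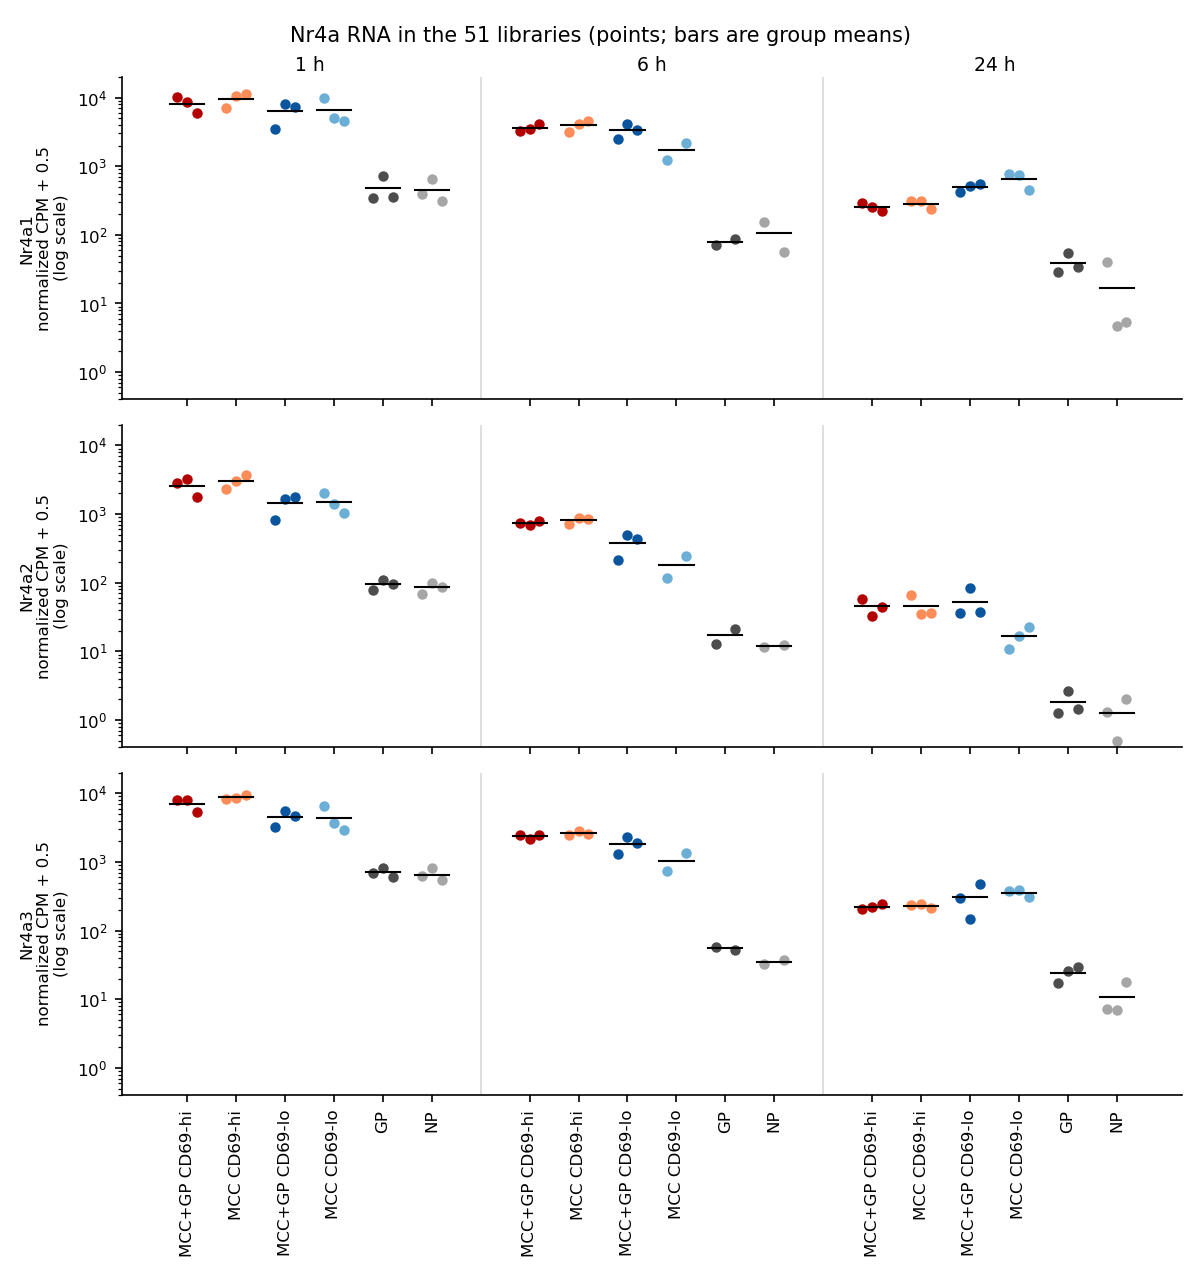
Normalized CPM plus 0.5 (log axis) of Nr4a1, Nr4a2 and Nr4a3 in each of the 51 libraries (points), by group and time, with bars at the group means. Libraries with MCC lie above GP and NP libraries of the same time for all 3 genes, and every group mean is lower at each later time.

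At 6 h the same contrast was larger in fold although the levels were lower. Nr4a1 stood at 3196, 4127 and 4572 CPM in MCC CD69-hi, against 153 and 55.4 CPM in NP. Nr4a2 stood at 721, 874 and 855 CPM in MCC CD69-hi, against 11 and 11.8 CPM in NP. Nr4a3 stood at 2469, 2787 and 2540 CPM in MCC CD69-hi, against 31.8 and 36.8 CPM in NP. No stimulated library came near an NP library, but the share of all genes without overlap was not computed. Myeloid and dendritic markers summed to 760 CPM in MCC CD69-hi and 98.3 CPM in NP at 6 h, B cell markers to 1072 and 538 CPM, and MHC class II genes to 724 and 256 CPM. The log2 fold changes were 5.25 ± 0.67, 6.16 ± 0.52 and 6.24 ± 0.42 (SE; edgeR adjusted p = 3.38e-08, 1.71e-12 and 1.14e-15), and 23.2% of all genes were called higher. Without the first NP 6 h library, the value for Nr4a1 was 6.14. In the 2 rounds that hold both groups it lay between 4.38 and 6.21 for Nr4a1, 5.97 and 6.15 for Nr4a2, and 6.22 and 6.26 for Nr4a3.

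By 24 h the CD69-hi cells still held more of each member than NP cells. Nr4a1 stood at 307, 312 and 234 CPM in MCC CD69-hi, against 39.6, 4.14 and 4.86 CPM in NP. Nr4a2 stood at 65.3, 34.2 and 35.5 CPM in MCC CD69-hi, against 0.804, 0 and 1.52 CPM in NP, which rest on 4, 0 and 10 counts. Nr4a3 stood at 234, 241 and 211 CPM in MCC CD69-hi, against 6.63, 6.59 and 17.5 CPM in NP. Again the groups did not overlap, a property whose share among all genes was not computed. Log2 fold changes were 4.17 ± 0.56, 5.73 ± 0.57 and 4.44 ± 0.34 (SE; edgeR adjusted p = 6.06e-08, 8.33e-11 and 2.36e-14), and 29.2% of all genes were called higher. Single NP libraries moved these values: without the first NP 24 h library Nr4a1 stood at 5.97, and without the third Nr4a2 stood at 6.76 and Nr4a3 at 5.10. With B cell RNA as a covariate the values were 3.37, 5.09 and 3.84; B cell markers summed to 212 CPM in MCC CD69-hi and 760 CPM in NP at 24 h. Across 3 rounds the difference lay between 2.94 and 6.07 for Nr4a1, 4.16 and 6.12 for Nr4a2, and 3.55 and 5.09 for Nr4a3.

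In the CD69-lo fraction the family was also higher than in NP. At 1 h, Nr4a1 stood at 9899, 5040 and 4578 CPM in MCC CD69-lo, Nr4a2 at 2026, 1408 and 1046 CPM, and Nr4a3 at 6623, 3737 and 2907 CPM. Each of these lies above every NP library of 1 h given earlier, a property whose share among all genes was not computed. The log2 fold changes over NP were 3.85 ± 0.52, 4.14 ± 0.38 and 2.75 ± 0.29 (SE; edgeR adjusted p = 6.49e-06, 1.52e-09 and 2.63e-08), where 2.72% of all genes were called higher. The same NP libraries serve both sort fractions, so the comparisons are not independent. B cell markers summed to 2190 CPM in MCC CD69-lo and 566 CPM in NP at 1 h; with that RNA as a covariate Nr4a1 stood at 4.52. Within the 2 rounds that hold both groups the difference lay between 3.92 and 4.03 for Nr4a1, 4.0 and 4.34 for Nr4a2, and 2.77 and 3.04 for Nr4a3.

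At 6 h, the MCC CD69-lo libraries held 1215 and 2180 CPM of Nr4a1, 118 and 248 CPM of Nr4a2, and 748 and 1343 CPM of Nr4a3. Log2 fold changes over NP were 4.02 ± 0.65, 4.0 ± 0.49 and 4.93 ± 0.41 (SE; edgeR adjusted p = 0.000125, 1.47e-06 and 2.96e-10), with 2.12% of all genes called higher. With only these 4 libraries in the fit, the adjusted p (edgeR) was 0.186 for Nr4a1 and 0.0532 for Nr4a2, with values of 4.04 and 4.02. Without the first NP 6 h library Nr4a1 stood at 4.89, and without the second MCC CD69-lo library Nr4a2 stood at 3.36. At 24 h, the MCC CD69-lo libraries held 772, 743 and 448 CPM of Nr4a1, 10.4, 16.5 and 22.4 CPM of Nr4a2, and 380, 386 and 304 CPM of Nr4a3. Log2 fold changes were 5.37 ± 0.58, 4.33 ± 0.67 and 5.09 ± 0.35 (SE; edgeR adjusted p = 3.17e-08, 1.32e-05 and 2.5e-13), with 9.83% of all genes called higher. Without the first NP 24 h library Nr4a1 stood at 7.17, and without the third Nr4a2 stood at 5.36 and Nr4a3 at 5.75. Myeloid and dendritic markers summed to 1095 CPM in MCC CD69-lo and 98.3 CPM in NP at 6 h, and to 1470 and 164 CPM at 24 h. With that RNA as a covariate Nr4a1 stood at 4.66 at 6 h and 6.05 at 24 h. In every round that holds both groups all 3 genes were higher in MCC CD69-lo, by 2.99 to 5.29 at 6 h and by 3.08 to 7.38 at 24 h.

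The family was also higher in stimulated cells when GP was present on both sides of the comparison, which shares no library with that of MCC against NP. All 18 values of MCC+GP CD69-hi or MCC+GP CD69-lo against GP were called higher, and their log2 fold changes ran from 2.67 to 5.55. Their libraries did not overlap, but the share of all genes without overlap was not computed. In MCC+GP CD69-hi, Nr4a1 changed by 4.11, 5.55 and 2.72 at 1, 6 and 24 h, Nr4a2 by 4.78, 5.47 and 5.06, and Nr4a3 by 3.33, 5.43 and 3.22. The shares of all genes called higher there were 13.7, 23.5 and 29.5%. In MCC+GP CD69-lo, Nr4a1 changed by 3.73, 5.41 and 3.67, Nr4a2 by 3.91, 4.49 and 4.91, and Nr4a3 by 2.67, 5.07 and 3.84, where 1.99, 7.41 and 15.3% of all genes were called higher. Adjusted p-values of these 18 values ran from 1.7e-14 to 2.81e-05 (edgeR). The value of Nr4a2 in MCC+GP CD69-lo at 24 h rests on 30 counts in 3 shallow libraries. In every round that holds both groups all 3 genes were higher, by 2.19 to 5.83 in MCC+GP CD69-hi and by 2.22 to 5.57 in MCC+GP CD69-lo.

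Markers of other cells moved here as well. B cell markers summed to 3752 CPM in MCC+GP CD69-hi and 645 CPM in GP at 1 h, and to 212 and 682 CPM at 24 h. In MCC+GP CD69-lo against GP they summed to 1990 and 645 CPM at 1 h, 1761 and 528 CPM at 6 h, and 2902 and 682 CPM at 24 h. Myeloid and dendritic markers summed to 585 CPM in MCC+GP CD69-hi, 1545 CPM in MCC+GP CD69-lo and 67.2 CPM in GP at 6 h, and to 183, 8496 and 146 CPM at 24 h. T cell markers summed to 1821 CPM in MCC+GP CD69-lo and 4327 CPM in GP at 24 h. Their median log2 fold change was -1.82, against -0.39 for all genes. With B cell RNA as a covariate, MCC+GP CD69-hi over GP stood at 5.16, 5.61 and 4.11 for Nr4a1, Nr4a2 and Nr4a3 at 1 h, and at 2.05 for Nr4a1 at 24 h. In MCC+GP CD69-lo the same covariate gave 4.33, 6.11 and 4.57 for Nr4a1 at 1, 6 and 24 h, and 5.63 for Nr4a2 and 4.51 for Nr4a3 at 24 h. With myeloid and dendritic RNA as a covariate, Nr4a1 at 6 h stood at 6.18 in CD69-hi and 6.32 in CD69-lo cells with MCC+GP, and in CD69-lo cells of 24 h at 4.85. All of these values were called.

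**Figure D2:**
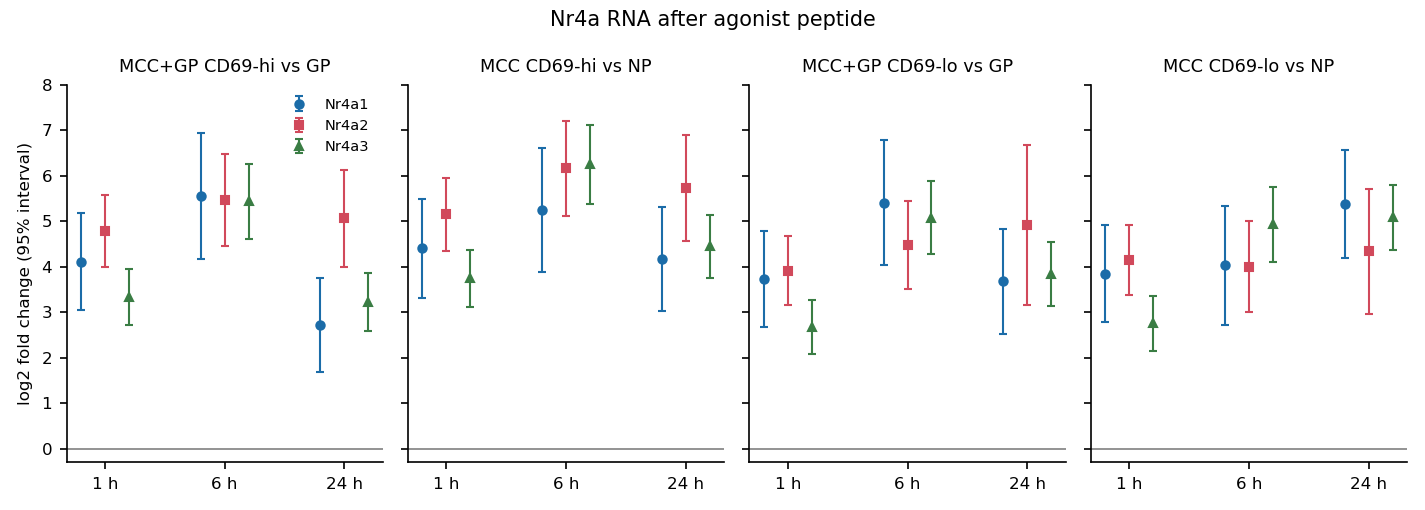
Log2 fold change with 95% intervals (edgeR) of each member in stimulated cells against their own control at 1, 6 and 24 h, in 4 panels by sort fraction and peptide. All 36 intervals lie above 0, the lowest bound being 1.68.

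The fold over NP did not stay constant with time, and the test of that difference was passed by Nr4a3 in both backgrounds. The log2 fold change of Nr4a3 in MCC CD69-hi over NP was 2.49 ± 0.44 larger at 6 h than at 1 h (SE; edgeR adjusted p = 2.06e-05) and differed by -1.80 between 24 h and 6 h (edgeR adjusted p = 0.00394). Across all genes, 16.8% were called higher in the first of these tests and 9.21% lower in the second. Without the third NP 24 h library that second difference was -1.14 with an adjusted p of 0.0735 (edgeR). In MCC+GP CD69-hi over GP, Nr4a3 differed by 2.11 between 6 h and 1 h and by -2.22 between 24 h and 6 h (edgeR adjusted p = 0.000172 and 0.000255), where 19% of all genes were called higher and 10.5% lower. Nr4a1 differed there by -2.83 between 24 h and 6 h (edgeR adjusted p = 0.00475). The other differences of Nr4a1 were 0.85 (6 h against 1 h) and -1.08 (24 h against 6 h) with MCC and 1.44 (6 h against 1 h) with MCC+GP, and those of Nr4a2 were -0.43 to 1.01, none of them called. With only the 4 groups of each comparison fitted, Nr4a2 with MCC (0.83, edgeR adjusted p = 0.0212) and Nr4a1 with MCC+GP (1.31, 0.0137) were called for 6 h against 1 h. The first of these differences for Nr4a3 went with its level in NP, which was 34.3 ± 3.5 CPM at 6 h and 656 ± 135 CPM at 1 h (SD, n = 2 and 3).

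Mean levels of all 3 members were lower at each later time in every group, stimulated or not. Of the 36 steps tested (6 h against 1 h and 24 h against 6 h, for 3 genes in 6 phenotypes), 33 were called lower and 0 higher. The exceptions all concerned Nr4a1: 24 h against 6 h in MCC CD69-lo was -1.38 (95% interval -2.43 to -0.33, edgeR adjusted p = 0.107), 6 h against 1 h in MCC+GP CD69-lo was -0.92 (-1.87 to 0.03, edgeR adjusted p = 0.181), and 24 h against 6 h in GP was -1.01 (-2.11 to 0.10, edgeR adjusted p = 0.482). In NP, where no peptide was added, 6 h against 1 h was -2.12 for Nr4a1, -2.89 for Nr4a2 and -4.26 for Nr4a3, with 8.75% of all genes called lower. In GP the same step was -2.60, -2.50 and -3.69, with 9.37% of all genes called lower. A level before the first of these times was not analysed here.

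In MCC CD69-hi the step from 6 h to 24 h, which spans more hours, was larger than that from 1 h to 6 h. These steps were not tested against each other. From 1 h to 6 h, Nr4a1 changed by -1.27, Nr4a2 by -1.88 and Nr4a3 by -1.76, with 18.5% of all genes called lower. From 6 h to 24 h, Nr4a1 changed by -3.80, Nr4a2 by -4.18 and Nr4a3 by -3.51, with 16.9% called lower. In MCC CD69-lo the steps to 6 h were -1.94, -3.03 and -2.08 (8.38% called lower) and those to 24 h were -1.38, -3.42 and -1.55 (3.9% called lower). In MCC+GP CD69-hi the steps were -1.16, -1.80 and -1.58 to 6 h (20.5% called lower) and -3.84, -4.05 and -3.41 to 24 h (17.6% called lower). In MCC+GP CD69-lo they were -0.92, -1.92 and -1.28 to 6 h (9.12% called lower) and -2.74, -3.22 and -2.43 to 24 h (14.8% called lower). In GP the step to 24 h was -1.01, -3.65 and -1.20 (1.95% called lower), and in NP it was -2.72, -3.75 and -1.71 (1.55% called lower).

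Some of these calls rest on single libraries or on 1 setting, mostly for Nr4a1. Its step to 6 h in MCC CD69-hi lost the call without the first (edgeR adjusted p = 0.0994) or second 6 h library (0.0524), or the second (0.0564) or the third 1 h library (0.0634). In MCC+GP CD69-hi the step of Nr4a1 to 6 h lost it without the first (0.082) or second 6 h library (0.0769), or the first (0.0942) or second 1 h library (0.0577). In MCC CD69-lo it lost it without the first 6 h library (-1.58, 0.199) or the first 1 h library (-1.51, 0.0776), in GP without the first 6 h library (-2.39, 0.0509), and in NP without the second 6 h library (-1.56, 0.203). The step of Nr4a1 to 24 h in NP was -1.82 without the first 6 h library (edgeR adjusted p = 0.343) and -4.52 without the first 24 h library. The step of Nr4a3 to 24 h lost its call in MCC CD69-lo without the second 6 h library (-1.07, 0.13), and in GP without either 6 h library (0.262 and 0.132) or without the first (0.182) or second 24 h library (0.0779). Without the first NP 6 h library, the step of Nr4a1 to 6 h in NP was -2.97. Without the third NP 24 h library, the step to 24 h in NP was -4.78 for Nr4a2 and -2.37 for Nr4a3. Without the second MCC CD69-lo library of 6 h, the steps of Nr4a2 in MCC CD69-lo were -3.67 and -2.78.

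When the fit held only the groups being compared, NP lost the calls of Nr4a1 for both steps (edgeR adjusted p = 0.0888 and 0.322) and of Nr4a3 for the second (0.0575). With no filter on low counts, Nr4a1 lost its step to 6 h in MCC+GP CD69-hi (0.062) and Nr4a3 its step to 24 h in GP (0.062). Marker RNA changed with time too: B cell markers in MCC CD69-hi summed to 3550, 1072 and 212 CPM at 1, 6 and 24 h, and myeloid and dendritic markers to 402, 760 and 195 CPM. With myeloid and dendritic RNA as a covariate, the step of Nr4a1 to 6 h was not called in MCC CD69-hi (-1.09, 0.0747), MCC+GP CD69-hi (-1.08, 0.0612) or MCC CD69-lo (-1.40, 0.234), and stood at -0.32 in MCC+GP CD69-lo. The same covariate ended the calls of Nr4a3 for the step to 6 h in MCC+GP CD69-lo (0.0735) and to 24 h in GP (0.0614). B cell RNA as a covariate gave steps to 24 h of -4.77, -4.95 and -4.23 in MCC CD69-hi and of -4.82, -4.83 and -4.16 in MCC+GP CD69-hi, and steps of Nr4a1 to 6 h of -1.98 and -1.86 in the same groups.

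Ordered by mean level, the 4 stimulated groups of 1 h ranked highest for each gene and NP at 24 h lowest. Nr4a1 averaged 9574 ± 2201 CPM in MCC CD69-hi at 1 h and 16.2 ± 20.3 CPM in NP at 24 h (SD, n = 3 each). Neighbours in the order mostly overlapped. Among them, Nr4a1 in MCC CD69-hi at 24 h (284 ± 43 CPM) lay next to NP at 1 h (453 ± 179 CPM), with overlapping libraries. Nr4a2 in MCC CD69-lo at 24 h (16.4 ± 6.0 CPM) lay between GP at 6 h (16.7 ± 6.0 CPM) and NP at 6 h (11.4 ± 0.5 CPM), and overlapped both.

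The members differed in how they went with the CD69 gate. With MCC, Nr4a2 was higher in CD69-hi than in CD69-lo cells at all 3 times, while Nr4a1 and Nr4a3 were lower in CD69-hi at 24 h. The log2 differences for Nr4a2 were 1.01 at 1 h, 2.16 at 6 h and 1.39 at 24 h (edgeR adjusted p = 0.0407, 3.09e-05 and 0.00522). For Nr4a3 they were 1.00, 1.31 and -0.64 (edgeR adjusted p = 0.0136, 0.000921 and 0.0478). For Nr4a1 they were 0.56, 1.22 and -1.20 (edgeR adjusted p = 0.479, 0.0672 and 0.029), where the 95% interval was -0.39 to 1.5 at 1 h and, at 6 h, 0.13 to 2.32. Nr4a1 at 6 h was called with the replicate block by round (1.31, edgeR adjusted p = 0.036), with B cell RNA as a covariate (1.27, 0.0425) and when only the compared groups were fitted (1.23, 0.00201). The genes called higher in CD69-hi made up 3.46, 19.9 and 29.1% of all genes at 1, 6 and 24 h, and those called lower 9.06, 22.5 and 32.6%, so a call at 24 h is not unusual among genes.

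By library at 24 h, Nr4a1 stood at 307, 312 and 234 CPM in MCC CD69-hi, against 772, 743 and 448 CPM in MCC CD69-lo. Nr4a2 stood at 65.3, 34.2 and 35.5 CPM in MCC CD69-hi, against 10.4, 16.5 and 22.4 CPM in MCC CD69-lo. Nr4a3 stood at 234, 241 and 211 CPM in MCC CD69-hi, against 380, 386 and 304 CPM in MCC CD69-lo. None of the 3 genes overlapped between the fractions at that time, but how many of all genes do so was not computed. Within the 2 rounds that hold both fractions at 24 h, the difference lay between -1.66 and -1.31 for Nr4a1, 1.08 and 1.67 for Nr4a2, and -0.873 and -0.657 for Nr4a3.

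The change of the gate difference with time was itself tested. From 6 h to 24 h it moved by -2.42 for Nr4a1 (edgeR adjusted p = 0.0129) and by -1.96 for Nr4a3 (edgeR adjusted p = 0.000756), and from 1 h to 24 h by -1.76 and -1.64 (edgeR adjusted p = 0.0294 and 0.000845). For Nr4a2 these were -0.76 (95% interval -1.93 to 0.40) and 0.39 (-0.71 to 1.48), neither of them called. The -2.42 for Nr4a1 was -2.06 without the first MCC CD69-lo library of 6 h (edgeR adjusted p = 0.093). The -1.76 lost its call without the first (0.0588) or second MCC CD69-lo library of 24 h (0.0566), the second (0.0687) or the third MCC CD69-lo library of 1 h (0.0742), or the third MCC CD69-hi library of 24 h (0.0556).

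Of all genes, 8.53% were called lower in the first of these tests and 20.4% in the second. With B cell RNA as a covariate the changes were -3.47 and -2.75 for Nr4a1 and Nr4a3 from 6 h, and -3.17 and -2.74 from 1 h; with myeloid and dendritic RNA Nr4a1 was -2.61 from 1 h.

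**Figure D3:**
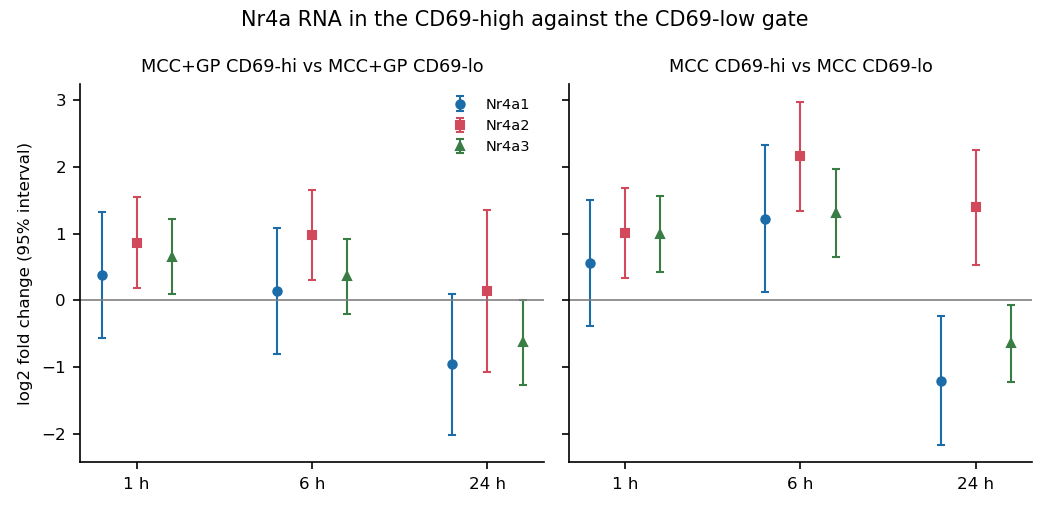
Log2 fold change with 95% intervals (edgeR) of each member in CD69-hi against CD69-lo cells at 1, 6 and 24 h, with MCC+GP on the left and MCC on the right. With MCC, Nr4a1 and Nr4a3 lie below 0 at 24 h (-1.20 and -0.64) while Nr4a2 lies above it (1.39).

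Several gate calls at 1 h and 24 h were lost on leaving out 1 library. Nr4a2 at 1 h lost its call without the second (edgeR adjusted p = 0.0637) or the third MCC CD69-hi library (0.111), or the second (0.127) or the third MCC CD69-lo library (0.176). Nr4a3 at 1 h lost it without the second (0.082) or the third MCC CD69-lo library (0.0992), and at 6 h without the first MCC CD69-lo library (0.0621). Nr4a1 at 24 h lost it without the first (0.0782) or second MCC CD69-lo library (0.0752) or the third MCC CD69-hi library (0.0855). Nr4a2 at 24 h lost it without the first MCC CD69-hi library (1.00, 0.0521). Nr4a3 at 24 h lost it without any 1 of the 3 MCC CD69-hi libraries (0.0717, 0.0573 and 0.106) or without the first (0.102) or second MCC CD69-lo library (0.119). Without the second MCC CD69-lo library of 6 h, the difference of Nr4a2 at 6 h was 2.80. With no filter on low counts, Nr4a2 at 1 h (0.0553) and Nr4a1 and Nr4a3 at 24 h (0.0544 and 0.103) were not called, and with myeloid and dendritic RNA as a covariate Nr4a2 at 1 h was not (0.0685). Within the 2 rounds that hold both fractions, the difference lay between 0.0896 and 1.14, 0.565 and 1.38, and 0.381 and 1.35 for Nr4a1, Nr4a2 and Nr4a3 at 1 h, and between 0.92 and 1.39, 1.81 and 2.61, and 1.05 and 1.72 at 6 h.

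Other cell types moved with the gate. B cell markers summed to 3550 CPM in MCC CD69-hi and 2190 CPM in MCC CD69-lo at 1 h, and to 1072 and 1032 CPM at 6 h; myeloid and dendritic markers summed to 402 and 170 CPM at 1 h, and to 760 and 1095 CPM at 6 h. At 24 h, B cell markers summed to 212 CPM in MCC CD69-hi and 1186 CPM in MCC CD69-lo, myeloid and dendritic markers to 195 and 1470 CPM, and MHC class II genes to 110 and 1173 CPM. Of the 21 myeloid and dendritic markers, Xcr1, Clec9a, Cd209a and Itgam were at 0 in MCC CD69-hi, and Xcr1, Itgam and C1qa in MCC CD69-lo. With B cell RNA as a covariate, the 24 h differences were -2.20 for Nr4a1 (edgeR adjusted p = 0.00566), 0.54 for Nr4a2 (0.448) and -1.41 for Nr4a3 (0.00167). With myeloid and dendritic RNA as a covariate they were -1.80 (0.0347), 1.22 (0.0945) and -0.72 (0.158). The higher Nr4a2 in CD69-hi cells at 24 h was therefore not called with either covariate. With RLE size factors, another scaling, the median of all genes moved from -0.202 to -0.428, and the 3 members stood at -1.43, 1.16 and -0.87, all called.

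With MCC+GP, 1 of the 9 gate differences was called. Nr4a2 at 6 h stood at 740, 703 and 793 CPM in MCC+GP CD69-hi, against 213, 492 and 429 CPM in MCC+GP CD69-lo. That is a log2 difference of 0.98 ± 0.33 (SE; edgeR adjusted p = 0.0154), with no overlap, where 20.9% of all genes were called higher and 25.2% lower. The share of all genes without overlap was not computed. The difference was 0.69 without the first MCC+GP CD69-lo library (edgeR adjusted p = 0.119), and 0.89 with myeloid and dendritic RNA as a covariate (edgeR adjusted p = 0.0694). At 1 h the differences were 0.39 for Nr4a1, 0.87 for Nr4a2 and 0.65 for Nr4a3 (edgeR adjusted p = 0.599, 0.0636 and 0.0941), where 5.4% of all genes were called higher and 13.3% lower. With RLE size factors, under which the median of all genes was 0.119 in place of -0.121, Nr4a2 stood at 1.13 (edgeR adjusted p = 0.0158) and Nr4a3 at 0.92 (0.0161), both called. With the replicate block by round they were called too, at 0.94 and 0.76. Nr4a2 was also called without the third MCC+GP CD69-hi (1.19, 0.0237) or MCC+GP CD69-lo library of 1 h (1.18, 0.0367), and Nr4a3 without the third MCC+GP CD69-hi library (0.92, 0.0367). Those of Nr4a1 and Nr4a3 at 6 h were 0.14 (95% interval -0.80 to 1.09) and 0.36 (-0.20 to 0.92).

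At 24 h, Nr4a1 stood at 294, 250 and 223 CPM in MCC+GP CD69-hi, against 425, 514 and 553 CPM in MCC+GP CD69-lo. Nr4a3 stood at 205, 218 and 243 CPM in MCC+GP CD69-hi, against 297, 149 and 472 CPM in MCC+GP CD69-lo. Nr4a1 did not overlap between the fractions, and Nr4a3 did, with the share of all genes without overlap not computed. The log2 differences were -0.95 and -0.63 (edgeR adjusted p = 0.135 and 0.102), where 26.5% of all genes were called higher and 20% lower. The call differed with the scaling: with RLE size factors the median of all genes stood at 0.0501 in place of 0.501, and the members at -1.43 (edgeR adjusted p = 0.0234) and -1.08 (0.00367). Nr4a3 was also called without the second MCC+GP CD69-lo library (-0.87, 0.032), which holds 29030 counts, and with the replicate block by round (-0.66). Nr4a2 was 0.15 (95% interval -1.07 to 1.36), and -0.31 with RLE size factors. Myeloid and dendritic markers summed to 183 CPM in MCC+GP CD69-hi and 8496 CPM in MCC+GP CD69-lo at 24 h, and B cell markers to 212 and 2902 CPM. T cell markers summed to 2854 and 1821 CPM, and 10 of the 12 were called higher in MCC+GP CD69-hi (median 1.10 against 0.50 for all genes). With B cell RNA as a covariate the values were -2.52 for Nr4a1 (edgeR adjusted p = 0.03), -1.10 for Nr4a2 (0.355) and -1.81 for Nr4a3 (0.00499), and with myeloid and dendritic RNA Nr4a1 stood at -2.04 (0.179). Within 3 rounds the difference lay between -1.31 and -0.533 for Nr4a1, -1.35 and 0.715 for Nr4a2, and -0.958 and 0.545 for Nr4a3. The change of the gate difference from 1 h to 24 h was called for Nr4a3, at -1.28 (edgeR adjusted p = 0.0122), where 15.5% of all genes were called lower. It was -1.01 without the third MCC+GP CD69-lo library of 24 h (edgeR adjusted p = 0.0868), -1.47 with myeloid and dendritic RNA as a covariate (0.211), -2.80 with B cell RNA and -2.00 with RLE size factors. From 6 h to 24 h the change of Nr4a3 was -0.99 (edgeR adjusted p = 0.0775). It was called with RLE size factors (-1.40, 0.0103), DESeq2 (-1.36, 0.00371), only the compared groups (-1.24, 0.0239), the replicate block by round (-1.06, 0.017) and B cell RNA (-1.99, 0.0047), and without the second MCC+GP CD69-lo library of 6 h (-1.26, 0.0315) or of 24 h (-1.25, 0.0304). For Nr4a1 the change from 1 h to 24 h was -1.34 (edgeR adjusted p = 0.123), and called with RLE size factors (-2.08, 0.0164), DESeq2 (-2.11, 0.00987), only the compared groups (-1.83, 0.000797) and B cell RNA (-3.35, 0.0295). Its change from 6 h was -1.10 (edgeR adjusted p = 0.264), and -1.35 with only the compared groups (0.00368). For Nr4a2 the change from 1 h was -0.72 (edgeR adjusted p = 0.456), and -1.54 in DESeq2 (0.0212). At 6 h, the difference between the gate effects with MCC+GP and with MCC was called for 0 of the 3 members in edgeR and 0 in DESeq2, with an unadjusted p under 0.05 for 2. It stood at -1.08 for Nr4a1 (95% interval -2.51 to 0.35), -1.18 for Nr4a2 (-2.20 to -0.15) and -0.95 for Nr4a3 (-1.80 to -0.10), with 0% of all genes called.

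The mix of members inside a library differed between the gates, a measure that needs no size factor. RNA of other cells can still enter such a ratio, and it was not recomputed with marker RNA as a covariate. With MCC, the count ratio of Nr4a1 to Nr4a2 was lower in CD69-hi than in CD69-lo libraries by a log2 difference of -1.33 over the 3 times, or 2.52-fold (two-sided exact permutation p = 0.00025, the smallest that the relabellings allow, adjusted p = 0.0045 over 18 tests). By time the difference was -0.42 at 1 h, -0.98 at 6 h and -2.60 at 24 h, with no overlap at any of them. The value at 24 h rests on 11, 51 and 44 counts of Nr4a2 in the MCC CD69-lo libraries. The ratio of Nr4a2 to Nr4a3 was higher in CD69-hi by 0.97 (exact permutation adjusted p = 0.01), with -0.05 at 1 h, 0.88 at 6 h and 2.06 at 24 h. The ratio of Nr4a1 to Nr4a3 had a difference of -0.37 (exact permutation adjusted p = 0.01). With MCC+GP the same ratios differed by -0.71 (exact permutation adjusted p = 0.01), 0.35 (0.3) and -0.36 (0.0348). Without the shallow 24 h libraries, Nr4a1 to Nr4a3 was not called (-0.23, 0.0692) and Nr4a2 to Nr4a3 was (0.45, 0.0245). Without the second MCC+GP CD69-lo library of 24 h alone, these were -0.21 (0.0675) and 0.63 (0.009). Nr4a1 to Nr4a3 also lost its call without any 1 of 8 other libraries. In MCC+GP CD69-hi these were the second (-0.35, 0.057) and the third of 1 h (-0.36, 0.0502), the first of 6 h (-0.33, 0.0532) and the second (-0.36, 0.114) and the third of 24 h (-0.31, 0.122). Among MCC+GP CD69-lo libraries, the second (-0.35, 0.0596) and the third of 1 h (-0.33, 0.0671) and the first of 6 h (-0.34, 0.0502) had this effect.

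Per gene length, so that levels of different genes can be compared, Nr4a2 was the smallest part of the family in every group. In shares of the summed per-length level, with MCC Nr4a2 made up 16.5% in CD69-hi and 14.4% in CD69-lo at 1 h, 12.9 and 7.16% at 6 h, and 9.46 and 2.05% at 24 h. With MCC+GP its shares were 17.0% in CD69-hi and 13.6% in CD69-lo at 1 h, 12.8 and 7.75% at 6 h, and 10.1 and 7.35% at 24 h. Nr4a1 made up 48.65% in MCC CD69-hi and 42.45% in NP at 1 h, and Nr4a3 34.9 and 48.5%. Nr4a1 was the largest part of the family in all 3 MCC CD69-hi libraries of 1 h, and Nr4a3 in 2 of the 3 NP libraries; in the second NP library Nr4a1 was (47.5 against 44.7%).

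The mix also shifted with time, but not for every ratio and step. In CD69-hi libraries the ratio of Nr4a1 to Nr4a2 was higher at 6 h than at 1 h by 0.61, and that of Nr4a1 to Nr4a3 by 0.46 (exact permutation adjusted p = 0.01 each). In CD69-lo libraries the same ratios were higher by 1.11 and 0.29 (exact permutation adjusted p = 0.01 and 0.018). The ratio of Nr4a2 to Nr4a3 differed over that step by -0.15 in CD69-hi, not called, and by -0.83 in CD69-lo (exact permutation adjusted p = 0.114 and 0.01). No ratio was called in CD69-lo libraries from 6 h to 24 h. Nr4a1 to Nr4a3 differed there by 0.05, Nr4a1 to Nr4a2 by 1.09 and Nr4a2 to Nr4a3 by -1.04 (exact permutation adjusted p = 0.825, 0.114 and 0.141). From 6 h to 24 h, CD69-hi libraries lost Nr4a2 against Nr4a3, with a difference of -0.71 (exact permutation adjusted p = 0.01). Nr4a1 to Nr4a2 differed over that step by 0.35 and was not called (exact permutation adjusted p = 0.111). The difference of Nr4a1 to Nr4a3 over that step was -0.36 (exact permutation adjusted p = 0.045), and was not called without any 1 of 7 libraries. In MCC CD69-hi these were the second (-0.36, 0.0675) and the third of 6 h (-0.29, 0.09) and the third of 24 h (-0.32, 0.09). In MCC+GP CD69-hi they were the second (-0.34, 0.09) and the third of 6 h (-0.32, 0.0975) and the second (-0.36, 0.0736) and the third of 24 h (-0.28, 0.0736).

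**Figure D4:**
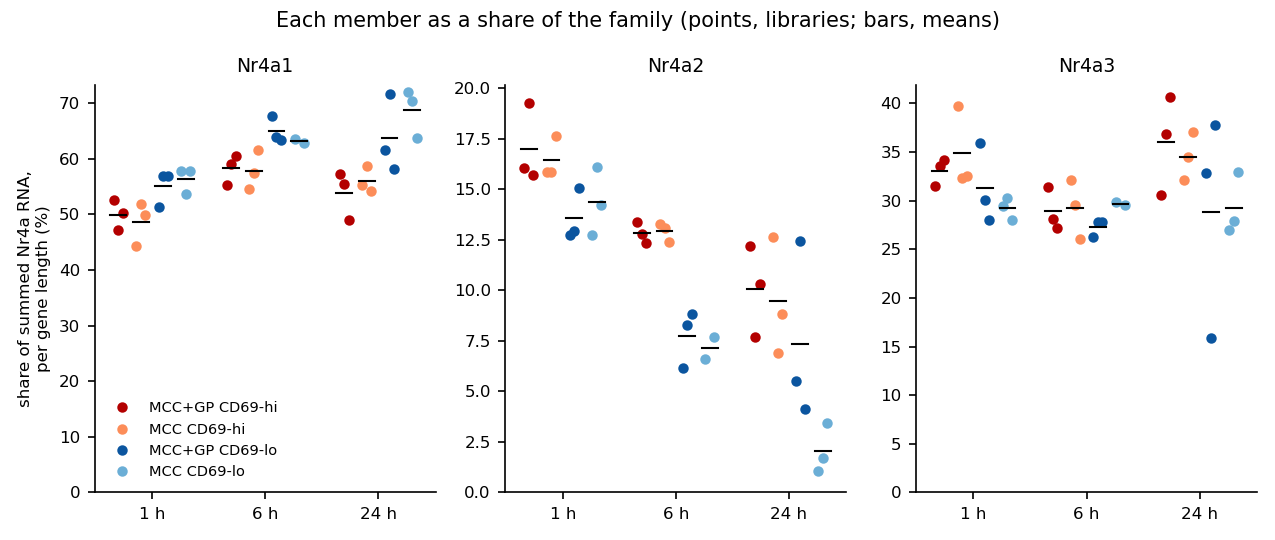
Share of each member in the summed per-length Nr4a level (%), by library (points) and group mean (bars), in the 4 stimulated phenotypes at 1, 6 and 24 h. The mean share of Nr4a2 falls with time and lies lower in CD69-lo, down to 2.05% in MCC CD69-lo at 24 h. Libraries of the sort fractions overlap with MCC at 1 h and with MCC+GP at 24 h. The second MCC+GP CD69-lo library of 24 h stands at 12.4%.

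The self-peptide GP, whose effect on gene expression is the question in the title of the series, left no called change in the family. Across the 12 comparisons with against without GP (3 pairs of conditions, each at 3 times and as their mean), 0 of 36 values were called in edgeR and 2 in DESeq2, both of Nr4a2 in CD69-lo cells. These were at 24 h and for the mean of the times, where DESeq2 called 3400 and 2299 of all genes tested. The log2 fold changes ran from -0.42 to 1.29, with adjusted p from 0.0878 to 1. Without adjustment, p was under 0.05 for 1 of 12 values of Nr4a1, 2 of Nr4a2 and 3 of Nr4a3. The share of all genes called in GP against NP was 0% at 1 h, 0% at 6 h, 0.00581% at 24 h and 0% for the mean of the times. Those are 0, 0, 1 and 0 genes in edgeR, beside 138, 126, 190 and 199 with an unadjusted p under 0.05 and 2, 2, 5 and 0 called by DESeq2.

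Without agonist, GP against NP at 1 h was 0.06 for Nr4a1 (95% interval -0.89 to 1.01), 0.16 for Nr4a2 (-0.53 to 0.86) and 0.10 for Nr4a3 (-0.46 to 0.67). At 6 h the values were -0.42, 0.56 and 0.67, and that of Nr4a1 was 0.50 without the first NP 6 h library. At 24 h, Nr4a3 stood at 16.7, 25.6 and 29.1 CPM in GP, against 6.63, 6.59 and 17.5 CPM in NP, with some overlap. Its log2 fold change was 1.19 ± 0.33 (SE; unadjusted p = 0.00107, edgeR adjusted p = 1), and 1.85 without the third NP 24 h library (edgeR adjusted p = 0.0667). Nr4a1 stood at 28.4, 54.3 and 33.4 CPM in GP, against 39.6, 4.14 and 4.86 CPM in NP, so that the first NP library lay among the GP libraries. Its log2 fold change was 1.29, and 3.09 without the first NP library (edgeR adjusted p = 0.056). Over the mean of the times the values were 0.31 (-0.31 to 0.94), 0.46 (-0.28 to 1.21) and 0.65 (0.27 to 1.04), none of them called. Within rounds, Nr4a3 was higher in GP than in NP in 3 of 3 rounds at 1 h (0.0266 to 0.17), 2 of 2 at 6 h (0.478 to 0.859) and 3 of 3 at 24 h (0.718 to 1.88). Nr4a2 was higher in GP in 3 of 3, 2 of 2 and 1 of 3 rounds at these times, and Nr4a1 in 2 of 3, 1 of 2 and 2 of 3, the last with differences of -0.472 to 3.56.

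Beside the agonist, GP was compared within each sort fraction. In CD69-hi cells, MCC+GP against MCC lay close to 0 for all members: the mean over the times was -0.17 for Nr4a1 (95% interval -0.71 to 0.38), -0.11 for Nr4a2 (-0.51 to 0.28) and -0.17 for Nr4a3 (-0.49 to 0.16). The shares of all genes called there were 0.68, 0, 0 and 0.0116% at 1, 6 and 24 h and for the mean, or 117, 0, 0 and 2 genes in edgeR, 270, 0, 3 and 13 in DESeq2, and 2828, 168, 123 and 1210 at an unadjusted p under 0.05. In CD69-lo cells the means were 0.17 (-0.42 to 0.76), 0.74 (0.17 to 1.32) and 0.26 (-0.09 to 0.61), with 0, 0, 19.3 and 11% of all genes called. There 123 and 971 genes had an unadjusted p under 0.05 at 1 and 6 h, and DESeq2 called 1 and 4. At 24 h and for the mean, DESeq2 called 3400 and 2299. At 24 h, myeloid and dendritic markers summed to 8496 CPM in MCC+GP CD69-lo and 1470 CPM in MCC CD69-lo, and 10 of 12 T cell markers were called lower (median -1.42 against -0.29 for all genes); their part in the result was not tested beyond the covariate.

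At 6 h, Nr4a1 stood at 2527, 4095 and 3312 CPM in MCC+GP CD69-lo, against 1215 and 2180 CPM in MCC CD69-lo, and the groups did not overlap. Nr4a2 and Nr4a3 overlapped, and the share of all genes without overlap was not computed. The log2 fold changes at 6 h were 0.96, 1.04 and 0.82 (edgeR adjusted p = 0.897, 0.874 and 0.874). For Nr4a2 the mean over the times had an adjusted p of 0.0878 in edgeR, 0.00533 in DESeq2 (0.84) and, once B cell RNA entered as a covariate, 0.0341 (0.97). It was also under 0.05 without the first MCC+GP CD69-lo library of 1 h (0.84, 0.0463) or of 6 h (0.84, 0.0383), and without the second MCC CD69-lo library of 6 h (0.95, 0.038). Within the 2 rounds that hold both groups, Nr4a2 differed by -0.267 and 0.348 at 1 h, by 0.855 and 0.986 at 6 h, and by 1.12 and 2.94 at 24 h. The 24 h groups in that mean hold 30 counts of Nr4a2 in MCC+GP CD69-lo and 106 in MCC CD69-lo.

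**Figure D5:**
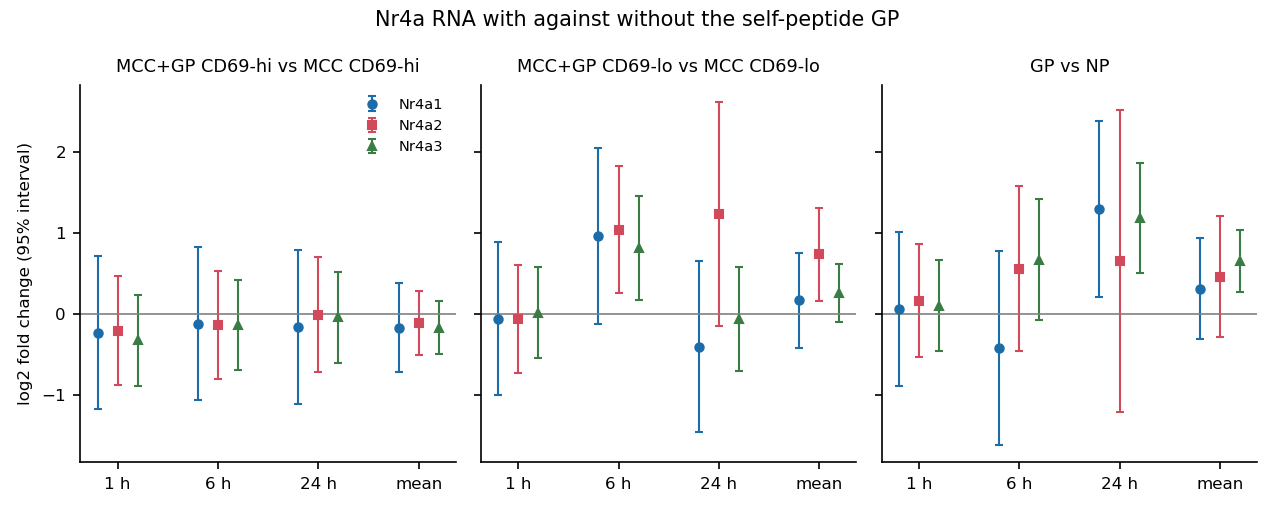
Log2 fold change with 95% intervals (edgeR) of each member with against without GP, at 1, 6 and 24 h and for the mean of the times, in 3 panels by condition. In CD69-hi cells all values lie between -0.32 and -0.01, and none of the 36 values shown was called.

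Genes that act beside the family were followed in lists chosen with earlier results of these data known. Of 20 immediate early genes in the list, 16, 12 and 11 were called higher in MCC CD69-hi over NP at 1, 6 and 24 h, and 1, 1 and 2 lower, with medians of 2.68, 2.00 and 1.93 against -0.05, 0 and -0.14 for all genes. Of all genes tested, the shares called higher were given earlier, and 17, 23.6 and 28.7% were called lower, the background for each list in this comparison. At 1 h, Egr3, a zinc finger factor, changed by 6.75 ± 0.53 and Atf3, a stress-induced factor, by 6.27 ± 0.43 (SE; edgeR adjusted p = 5.3e-12 and 5.74e-14). In MCC CD69-lo over NP the list had 15, 12 and 14 called higher and 0 lower, where 0.436, 0 and 8.65% of all genes were called lower. Between the gates with MCC, 4, 6 and 4 of the 20 were called higher in CD69-hi and 1, 5 and 9 lower, beside 3.46, 19.9 and 29.1% of all genes called higher and 9.06, 22.5 and 32.6% lower. Egr1 averaged 824 ± 120 CPM in MCC CD69-lo at 24 h, against 43.6 ± 67.4 CPM in NP (SD, n = 3 each; edgeR adjusted p = 0.000353).

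Calcium-dependent and other factors that act on the Nr4a1 promoter went in both directions. Of 21, 6, 7 and 5 were called higher in MCC CD69-hi over NP at 1, 6 and 24 h, and 7, 8 and 8 lower, with medians of -0.09, 0.01 and -0.32. Nfatc1, a calcineurin-dependent factor, averaged 683 ± 79 CPM in MCC CD69-hi, against 196 ± 21 CPM in NP at 1 h (SD, n = 3 each), a log2 fold change of 1.80 (edgeR adjusted p = 1.9e-12). Srf, serum response factor, rose by 1.85, 2.14 and 1.33 at the 3 times (edgeR adjusted p = 3.08e-09, 5.04e-10 and 4.19e-07). Hdac5, a deacetylase that represses MEF2 factors, fell by 2.68 at 6 h and by 1.79 at 24 h (edgeR adjusted p = 1.57e-21 and 9.23e-17). Mef2c rose by 3.12 at 1 h (edgeR adjusted p = 9.67e-05), and B cells, whose markers were higher in that group, are known to express it; their part in the result was not tested.

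Dimer partners and corepressors of NR4A proteins went in both directions. Of 10 in the list, 9 were tested, and 1, 4 and 5 of them were called higher in MCC CD69-hi over NP at 1, 6 and 24 h, and 3, 4 and 2 lower, with medians of -0.36, 0.38 and 0.43. Rxra, which forms dimers with NR4A1 and NR4A2, averaged 11.8 ± 3.0 CPM in MCC CD69-hi and 20.7 ± 4.5 CPM in NP at 1 h, 5.11 ± 1.57 and 32.8 ± 2.6 CPM at 6 h, and 74.4 ± 11.7 and 26.2 ± 0.5 CPM at 24 h. Its log2 fold changes were -0.91, -2.67 and 1.5 (edgeR adjusted p = 0.0109, 1.95e-12 and 5.42e-08). Rxrb was lower at 1 h and at 6 h by -0.86 and -0.85 (edgeR adjusted p = 0.000148 and 8.74e-05). Trim28, a corepressor, rose by 1.59 at 6 h and 2.05 at 24 h (edgeR adjusted p = 2.47e-12 and 7.85e-19).

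Genes tied to NR4A proteins in tolerance and dysfunction had 5, 5 and 8 of 18 called higher in MCC CD69-hi over NP and 5, 4 and 4 lower, with medians of 0.39, 0.51 and 0.30. Pdcd1, which encodes the inhibitory receptor PD-1, averaged 63.7 ± 9.5 CPM in MCC CD69-hi, against 1.20 ± 0.25 CPM in NP at 1 h (SD, n = 3 each), and its log2 fold changes were 5.71, 7.32 and 6.09 (edgeR adjusted p = 1.67e-10, 2.07e-13 and 7.37e-14). Lag3, another inhibitory receptor, averaged 230 ± 5.7 CPM in MCC CD69-hi at 24 h, against 0.253 ± 0.438 CPM in NP (edgeR adjusted p = 5.68e-16). Ctla4 was lower at 6 h (-2.80) and higher at 24 h (4.67; edgeR adjusted p = 1.62e-11 and 3.23e-21). Of 13 cell death genes, 4, 6 and 5 were called higher and 3, 4 and 5 lower, with medians of -0.08, 0.19 and 0.22. Bcl2l1, which encodes the survival protein BCL-XL, rose by 2.09, 4.42 and 6.02 (edgeR adjusted p = 1.4e-07, 1.6e-16 and 1.23e-22).

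Of the 44 nuclear receptor genes outside the family in the list, 14 did not pass the filter on low counts. Of the 30 tested, 3, 5 and 5 were called higher in MCC CD69-hi over NP and 8, 7 and 11 lower, with medians of 0.21, -0.34 and -0.24. Rara, the retinoic acid receptor alpha gene, rose by 2.81 at 1 h (edgeR adjusted p = 1.38e-10). Thra, a thyroid hormone receptor gene, averaged 1.04 ± 0.44 CPM in MCC CD69-hi, against 45.5 ± 5.6 CPM in NP at 6 h (SD, n = 3 and 2), and fell by 5.45 (edgeR adjusted p = 4.34e-19).

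Over the 18 group means, the genes whose pattern was most like a member included the other members. Among 9443 genes reaching 20 CPM in some group, the highest Pearson r with Nr4a1 were those of Cd69 (0.991), Nfkbid (0.987), Nr4a3 (0.985), Nr4a2 (0.972) and Sdc4 (0.964). For Nr4a2 they were Nr4a3 (0.976), Rel (0.973), Nr4a1 (0.972), Cd69 (0.968) and Nfkbid (0.965). For Nr4a3 they were Nr4a1 (0.985), Nfkbid (0.981), Cd69 (0.979), Nr4a2 (0.976) and Nabp1 (0.973). These are descriptions over groups that share libraries, scaling and the same 3 times. Cd69, whose protein was used for the sort, is listed 3 times.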

How the data were processed

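Poly-adenylated RNA of 51 libraries in 18 groups was measured. The submitters' processing notes name bcl2fastq 2.20, STAR 2.6.1c, HTSeq 0.9.1 and the mm10 build. The authors deposited raw counts per gene, used for all tests, and a table headed TPM, whose deposited columns sum to 9986 to 9996 and which gave only shares per gene length.

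Counts were scaled with TMM, filtered with filterByExpr by group and fitted over all libraries, each group having its own coefficient (in R 4.3.3, with edgeR 4.0.16 and limma 3.58.1). The quasi-likelihood F test was two-sided, adjusted by Benjamini and Hochberg over 17211 genes, and called at 0.05. SE is the absolute log2 fold change over the root of F. Overlap of libraries was looked at for the members only, without a share over all genes. Ratios of members used log2 of counts plus 0.5 and exact permutation within strata. DESeq2 1.42.0 was an alternative. Marker RNA as a covariate was fitted beside the group coefficients, so its slope comes from differences between libraries within groups. Where marker sums do not overlap between groups, values with a covariate are extrapolations. Depth ran from 29030 to 10278776 counts.

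Counts were simulated with the same dispersion for every gene, and groups differed only in the changed genes. The shares recovered therefore need not hold for the members. For MCC CD69-hi against NP at 6 h (14095 genes), 82.1% of genes changed 4-fold and 19.8% of those changed 2-fold were recovered. For MCC CD69-hi against MCC CD69-lo at 1 h (14088 genes) these were 77.8 and 36.8%. A first criterion of 80% for 4-fold changes was missed in both comparisons in an earlier simulation and was lowered; after the simulation was redone over all libraries it was missed in the second. Above 50 counts, 96 and 100% of genes changed 4-fold were recovered, but only 26.3 and 56.6% of those changed 2-fold. The criterion was replaced by recovery of 4-fold changes above that count, bias and null rate. The members and lists were chosen with earlier results of these data known; 9 comparisons of 2 differences were added after the data were seen. List genes named are among up to 4 per list and comparison with the largest called change, at 5 CPM or more in 1 group. Sequences are not used here.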

Additional observations from a re-analysis of the deposited data

Results flagged for a closer look

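Differences between 2 differences, most of them changes with time, were tested in 9 comparisons for each of the 3 members. In edgeR 10 of these values passed, 3 for Nr4a1 and 7 for Nr4a3, all of them changes with time. With MCC, the difference of CD69-hi from CD69-lo cells moved between 6 h and 24 h by -2.42 for Nr4a1 (edgeR adjusted p = 0.0129) and by -1.96 for Nr4a3 (edgeR adjusted p = 0.000756). Between 1 h and 24 h it moved by -1.76 for Nr4a1 and -1.64 for Nr4a3 (edgeR adjusted p = 0.0294 and 0.000845). With MCC+GP it moved between 1 h and 24 h by -1.28 for Nr4a3 (edgeR adjusted p = 0.0122). Of all genes, 8.53, 20.4 and 15.5% were called lower in these 3 comparisons, in the order given.

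The fold of MCC CD69-hi over NP moved for Nr4a3 by 2.49 between 1 h and 6 h and by -1.80 between 6 h and 24 h (edgeR adjusted p = 2.06e-05 and 0.00394). The fold of MCC+GP CD69-hi over GP moved for Nr4a3 by 2.11 and -2.22 over the same steps (edgeR adjusted p = 0.000172 and 0.000255), and for Nr4a1 by -2.83 between 6 h and 24 h (edgeR adjusted p = 0.00475). Over the first step 16.8% of all genes were called higher with MCC and 19% with MCC+GP. Over the second step 9.21 and 10.5% were called lower. All changes of a difference were computed after the levels at each time had been seen. Several lost their call without 1 library, as given with the results.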

How the results depend on the processing

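Each member's value in each comparison was recomputed under other settings, 2318 values in all, of which 2155 kept their direction and their side of the threshold. Among 486 values of MCC or MCC+GP against the control, 2 lost their call, both where the fit held only the groups compared (Nr4a1 4.04 and Nr4a2 4.02, MCC CD69-lo over NP at 6 h). Counts of all genes called moved by over 1.5 times in 121 of 773 cases. Values below are log2 differences, and the cause of each change was not tested.

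In CD69-hi against CD69-lo with MCC, calls were lost with no filter on low counts (Nr4a2 1.06 at 1 h, Nr4a1 -1.19 and Nr4a3 -0.63 at 24 h), with myeloid and dendritic RNA as a covariate (Nr4a2 1.08 at 1 h and 1.22 at 24 h, Nr4a3 -0.72 at 24 h) and with B cell RNA (Nr4a2 0.54 at 24 h). Nr4a1 at 6 h was called with B cell RNA (1.27), with only the compared groups (1.23) and with the replicate block by round (1.31).

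With MCC+GP at 1 h, Nr4a2 was called with RLE (1.13), DESeq2 (1.13), the replicate block (0.94), B cell RNA (1.23) and without the shallow 24 h group (0.93), and Nr4a3 with RLE (0.92), DESeq2 (0.92), only the compared groups (0.90), the block (0.76) and B cell RNA (0.99). At 6 h, Nr4a1 turned with B cell (-0.11) and myeloid RNA (-0.14), and Nr4a2 lost its call with myeloid RNA (0.89). At 24 h, Nr4a1 was called with RLE (-1.43), DESeq2 (-1.46), only the compared groups (-1.46) and B cell RNA (-2.52), and Nr4a3 with RLE (-1.08), DESeq2 (-1.04), only the compared groups (-1.12), the block (-0.66) and B cell RNA (-1.81). Nr4a2 turned there with RLE (-0.31), DESeq2 (-0.40), only the compared groups (-0.33), B cell (-1.10) and myeloid RNA (-0.18).

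For MCC+GP against MCC in CD69-lo at 24 h, Nr4a3 turned with RLE (0.17), DESeq2 (0.13), only the compared groups (0.089), B cell (0.38) and myeloid RNA (0.015), Nr4a1 with B cell (0.18) and myeloid RNA (0.085), and Nr4a2 was called with DESeq2 (1.57). The mean over times for Nr4a2 was called with DESeq2 (0.84) and B cell RNA (0.97). At 1 h Nr4a3 turned with the block (-0.053), and in CD69-hi at 24 h Nr4a2 turned with B cell RNA (0.027). The change of the gate difference of Nr4a2 with MCC from 1 h to 24 h turned with RLE (-0.0035) and B cell RNA (-0.80).

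Among steps in time, myeloid RNA as a covariate ended calls of Nr4a1 to 6 h in MCC CD69-hi (-1.09), MCC CD69-lo (-1.40) and MCC+GP CD69-hi (-1.08), and of Nr4a3 to 6 h in MCC+GP CD69-lo (-1.20) and to 24 h in GP (-1.17). No filter ended those of Nr4a1 to 6 h in MCC+GP CD69-hi (-1.22) and Nr4a3 to 24 h in GP (-1.21). Only the compared groups ended those of Nr4a1 in NP (-2.11 and -2.74) and Nr4a3 to 24 h in NP (-1.71), and gave calls of Nr4a1 to 24 h in MCC CD69-lo (-1.28) and to 6 h in MCC+GP CD69-lo (-0.90). Without the shallow 24 h libraries, the ratio of Nr4a1 to Nr4a3 by gate with MCC+GP lost its call (-0.23) and that of Nr4a2 to Nr4a3 gained one (0.45).

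Leaving out 1 library at a time changed calls or directions within these ranges. For the gate with MCC they were 0.81 to 1.37 (Nr4a2) and 0.77 to 1.49 (Nr4a3) at 1 h, 0.95 to 1.80 (Nr4a3) at 6 h, and -1.41 to -1.07 (Nr4a1), 1.00 to 1.64 (Nr4a2) and -0.75 to -0.58 (Nr4a3) at 24 h. With MCC+GP they were 0.58 to 1.19 (Nr4a2) and 0.46 to 0.92 (Nr4a3) at 1 h, -0.018 to 0.33 (Nr4a1) and 0.69 to 1.22 (Nr4a2) at 6 h, and -0.15 to 0.25 (Nr4a2) and -0.87 to -0.28 (Nr4a3) at 24 h. For GP against NP they were -0.36 to 0.42 (Nr4a1) and -0.019 to 0.27 (Nr4a3) at 1 h and -0.97 to 0.50 (Nr4a1) at 6 h. For MCC+GP against MCC in CD69-hi they were -0.35 to 0.032 (Nr4a2) at 1 h, -0.24 to 0.35 (Nr4a2) and -0.11 to 0.014 (Nr4a3) at 24 h, and -0.19 to 0.0088 (Nr4a2) for the mean. In CD69-lo they were -0.26 to 0.37 (Nr4a1), -0.29 to 0.22 (Nr4a2) and -0.21 to 0.43 (Nr4a3) at 1 h, -0.45 to 0.15 (Nr4a3) at 24 h, and 0.59 to 0.95 (Nr4a2) for the mean. For steps to 6 h of Nr4a1 they were -1.52 to -1.14 in MCC CD69-hi, -2.42 to -1.51 in MCC CD69-lo, -1.43 to -1.08 in MCC+GP CD69-hi, -2.76 to -2.10 in GP and -2.97 to -1.56 in NP. For steps to 24 h they were -1.91 to -1.07 (Nr4a3, MCC CD69-lo), -1.36 to -1.0 (Nr4a3, GP) and -4.52 to -1.82 (Nr4a1, NP). For changes of a difference they were -0.043 to 0.63 (Nr4a2, gate with MCC, 24 h against 1 h), -2.02 to 0.72 (Nr4a1) and -0.96 to 0.60 (Nr4a2) for MCC CD69-hi over NP at 24 h against 6 h, and -0.84 to 0.18 (Nr4a2) for MCC+GP CD69-hi over GP. For ratios by gate with MCC+GP they were -0.46 to -0.21 (Nr4a1 to Nr4a3) and 0.15 to 0.63 (Nr4a2 to Nr4a3). For ratios with time they were -0.21 to -0.10 (Nr4a2 to Nr4a3, CD69-hi, to 6 h), 0.23 to 0.47 (Nr4a1 to Nr4a2) and -0.44 to -0.28 (Nr4a1 to Nr4a3) in CD69-hi to 24 h, and -0.17 to 0.20 (Nr4a1 to Nr4a3), 0.88 to 1.34 (Nr4a1 to Nr4a2) and -1.46 to -0.75 (Nr4a2 to Nr4a3) in CD69-lo to 24 h.

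Libraries share no replicate number that pairs them. As a check, deviations of log2 CPM from the group mean were correlated between libraries of different groups, over the genes tested. The median r was 0.0704 over 110 pairs of the same round and time, and -0.0304 over 253 pairs of only the same time. Of the first, 97.3% were above 0, against 24.1% of the second. Deviations within a group sum to 0, so the second set is not independent of the first. Calls that the block changed are given with the results too. Depth is most limiting for MCC+GP CD69-lo at 24 h, where Nr4a2 rests on 30 counts.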
